A study of Arabidopsis thaliana with 3 samples.

Results

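CASP1 (AT2G36100, probe set 263284_at), CASP2 (AT3G11550, probe set 259291_at) and the dirigent family gene AT4G13580 (probe set 254718_at) are 3 genes of the Casparian strip whose probe sets were among the brightest in arrays of sorted endodermis of the Arabidopsis root. They were chosen by their mean signal over the same 3 arrays, out of the 22746 probe sets left after the 64 control probe sets (identifiers that start with AFFX). Their signals and ranks are therefore descriptions with no test. The pairing of 263284_at and 259291_at with CASP1 and CASP2 was given with the selection rule. The platform annotation used here lists 254718_at, which it names AT4G13580, and neither of the other two.

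The samples were 3 biological replicates of 1 group, with 1 Affymetrix array each and no control or contrasting group. Each was wild type Columbia, labelled mature endodermis, taken from roots of seedlings aged 6 days that had received no treatment other than growth on standard medium. Per the labels' protocols, root tips of about 1 cm were digested to protoplasts, the cells with green fluorescent protein were collected in a cell sorter, and their RNA was amplified in 2 cycles before hybridisation. The series text names the marker line E30. The labels do not say what drives its fluorescent protein, nor how seedlings were divided among the replicates, so the spread reported here is that between these 3 arrays.

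The endodermis is the innermost ground tissue layer of the root and surrounds the vascular cylinder. As its cells mature, each builds a Casparian strip, a ring of lignin in the wall between neighbouring cells that seals the extracellular path into the vasculature. CASP proteins are small membrane proteins with several membrane spans that gather in a belt of the plasma membrane and mark where the strip will form. They hold the machinery that polymerises lignin at that place: peroxidases, the oxidase that supplies reactive oxygen, and dirigent proteins. Dirigent proteins steer the coupling of phenolic radicals. ESB1, the best known of those at the strip, is needed for an unbroken ring. A receptor and its peptide ligands report gaps in the strip, and the transcription factor MYB36 switches on CASP genes and many of their partners.

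CASP1 had signals of 13947, 14315 and 13717 in replicates 1, 2 and 3, as linear intensities, with a mean of 13993 ± 302 (SD, n = 3). The highest of the 3 exceeded the lowest 1.04-fold. CASP1 was the brightest plant probe set of the array in replicates 1 and 3 and the third brightest in replicate 2.

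CASP2, the close relative of CASP1 in the same membrane domain, had signals of 12333, 13722 and 13328, with a mean of 13127 ± 716 (SD, n = 3). Replicate 1 was the low array, and the highest signal exceeded the lowest 1.11-fold. The probe set ranked 6 in replicate 1, 4 in replicate 2 and 2 in replicate 3.

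AT4G13580, a dirigent gene also called DIR18, had signals of 12446, 13356 and 12307, with a mean of 12703 ± 570 (SD, n = 3). Replicate 2 was the high array, 1.09-fold above the lowest. The probe set ranked 5 in each of the 3 arrays. All 3 genes had their highest signal in replicate 2, as did 50 of the 100 brightest plant probe sets.

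Of the 22746 plant probe sets, 3 ranked 5 or better in every array, and CASP1 and AT4G13580 were 2 of them. CASP2 was left out by its rank of 6 in replicate 1. A window set at that rank takes in CASP1, CASP2 and AT4G13580 by construction, and 4 probe sets then qualified in every array. The other was 259516_at, which has no gene name in the annotation used here. Widening the window to the 10 brightest of each array gave 7 such probe sets, with the same 3 among them. The 3 genes were chosen by these same signals, so the counts describe the selection and test nothing.

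**Figure D1:**
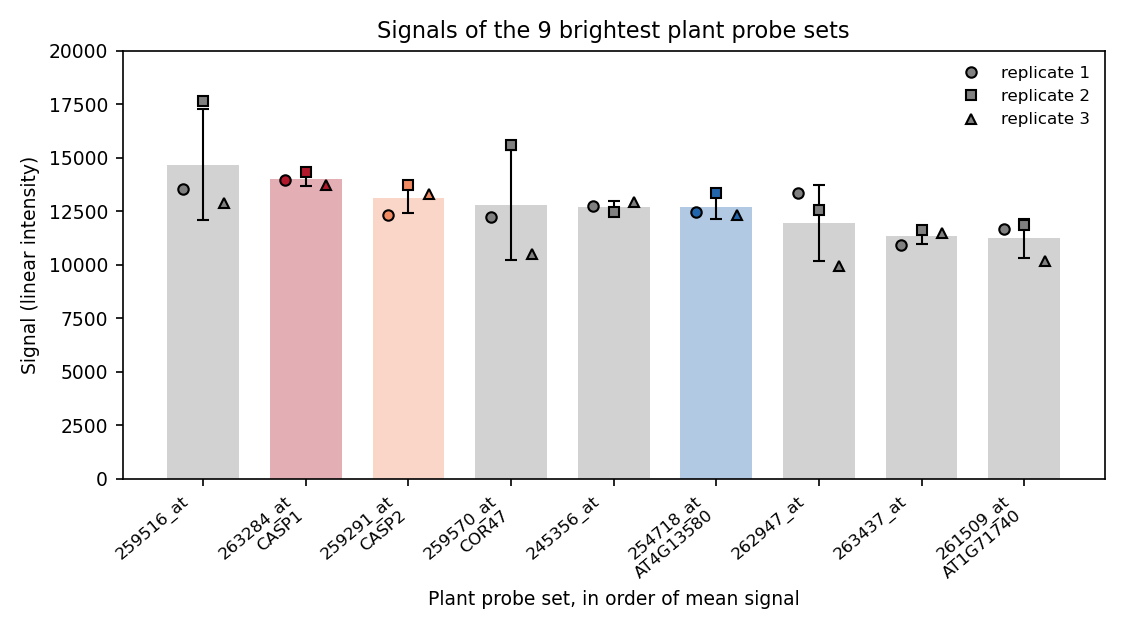
Linear signal (y axis) of the 9 plant probe sets with the highest mean signal (x axis), with bars for the mean, error bars for the SD over 3 arrays and a marker for each replicate. CASP1, CASP2 and AT4G13580 (coloured) stand at positions 2, 3 and 6, and CASP1 spans only 13717 to 14315.

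The cutoff of the selection, the 5 highest mean signals, fell next to AT4G13580. By the mean of the linear signals AT4G13580 stood at position 6, just outside, behind 245356_at with 12717 ± 255 (SD, n = 3) at position 5. By the mean of the log2 signals it stood at position 5, just inside, and COR47, a dehydrin gene (259570_at), moved from position 4 to position 6. COR47 had signals of 12257, 15589 and 10529, and its high value in replicate 2 weighs more in a linear mean. The next probe set down, 262947_at, had 11960 ± 1783 (SD, n = 3).

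The order of neighbouring probe sets was mostly within their spread. Probe sets respond differently to their targets, so the order is one of signals and not of transcript amounts. CASP1 was brighter than CASP2 in 3 of 3 arrays, by log2 differences of 0.18, 0.06 and 0.04 with a mean of 0.09 ± 0.07 (SD). It was brighter than AT4G13580 in 3 of 3 arrays, by 0.14 ± 0.04 (SD, log2). CASP2 and AT4G13580 did not separate: the mean log2 difference was 0.05 ± 0.06 (SD), and CASP2 was the brighter in 2 of 3 arrays. The brightest probe set, 259516_at, exceeded CASP1 in 1 of 3 arrays, replicate 2, with a mean log2 difference of 0.06 ± 0.21 (SD). The mean log2 difference of 245356_at from AT4G13580 was 0.0024 ± 0.092 (SD).

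Against the rest of the array these signals were far up. CASP1 lay 253-fold, 269-fold and 212-fold above the array's median plant probe set in replicates 1, 2 and 3, CASP2 224-fold, 258-fold and 206-fold, and AT4G13580 226-fold, 251-fold and 190-fold. Replicate 3 gave the lowest of these ratios for all 3 genes. The median plant signal itself was 55.1, 53.3 and 64.7 in the replicates and so was highest in that array. The summed signal of CASP1, CASP2 and AT4G13580 made up 0.629%, 0.663% and 0.656% of that of all plant probe sets, a mean of 0.649% ± 0.018 (SD, n = 3).

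A floor for these arrays was taken from 27 control probe sets with sequences of Bacillus subtilis, an organism foreign to the plant. Its 90th percentile, the reference level, was a signal of 14.2, 13.1 and 12.3 in replicates 1, 2 and 3. Relative to it, CASP1 lay 979-fold, 1096-fold and 1115-fold higher in the 3 arrays. CASP2 lay 866-fold, 1051-fold and 1083-fold higher, and AT4G13580 874-fold, 1023-fold and 1000.5-fold. Replicate 1, where the reference level was highest, had the lowest ratio for each of the 3 genes.

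**Figure D2:**
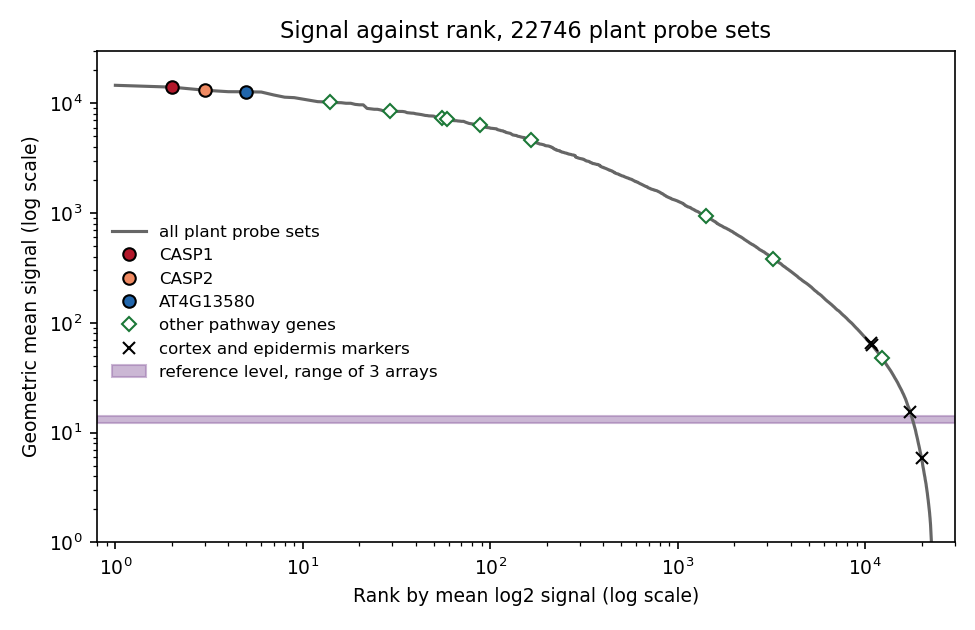
Geometric mean signal over 3 arrays (y axis, log scale) against rank (x axis, log scale) for 22746 plant probe sets, with the reference level of the Bacillus subtilis probe sets as a band from 12.3 to 14.2. CASP1, CASP2 and AT4G13580 sit at ranks 2, 3 and 5 on the flat upper end of the curve. Of the 9 other pathway genes (diamonds), 6 lie between ranks 14 and 164, with CIF2 at 1417, PER39 at 3224 and JKD at 12310. The cortex and epidermis markers (crosses) lie beyond rank 10000, as does JKD. The epidermis markers EXPA18 and EXPA7, at ranks 10661 and 10840, stand ahead of JKD.

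The spread between replicates, which the selection did not use, was small for all 3 genes. The SD of the log2 signal was 0.031 for CASP1, 0.080 for CASP2 and 0.064 for AT4G13580 (n = 3 arrays). Among the 497 other probe sets of the 500 brightest, the median SD was 0.23, and 4, 36 and 22 of them had a smaller SD than CASP1, CASP2 and AT4G13580 (0.805%, 7.24% and 4.43%). An SD over 3 arrays is itself imprecise, and no test was made.

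Spread fell with brightness over the whole upper end. The median SD of log2 signals was 0.25 at ranks 101 to 500, 0.20 at ranks 51 to 100, 0.17 at ranks 11 to 50 and 0.13 among the 7 other probe sets of the 10 brightest. Within the 100 brightest, counted from the smallest SD, CASP1 was at position 3, AT4G13580 at position 11 and CASP2 at position 15. The part of signal level in the small spread was not tested. Other probe sets among the 10 brightest had SDs on both sides: 245356_at of 0.029, below CASP1, and 263437_at of 0.046, below CASP2 and AT4G13580, against 0.29 for COR47 and 0.24 for 259516_at. The signal of 259516_at reached 17639 in replicate 2, above each signal of CASP1, CASP2 and AT4G13580.

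The small spread of both CASP genes held under a common scaling of the arrays and less so under quantile normalization. After quantile normalization, which gives all arrays the same distribution, the SD was 0.091 for CASP1 and 0.13 for CASP2, with 13.5% and 28.8% of the 497 other probe sets below them. AT4G13580 had an SD of 0.043, with 4.63% below it. Its rank among plant probe sets was 5 in each array, and control probe sets were included in this normalization. That SD therefore follows only how many control probe sets lay above AT4G13580, and is no measure of its spread in signal. With each array scaled to 1 common trimmed mean, the SD was 0.040, 0.054 and 0.061 for CASP1, CASP2 and AT4G13580. Of the 497 other probe sets, 1.01%, 2.62% and 3.22% then lay below them.

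**Figure D3:**
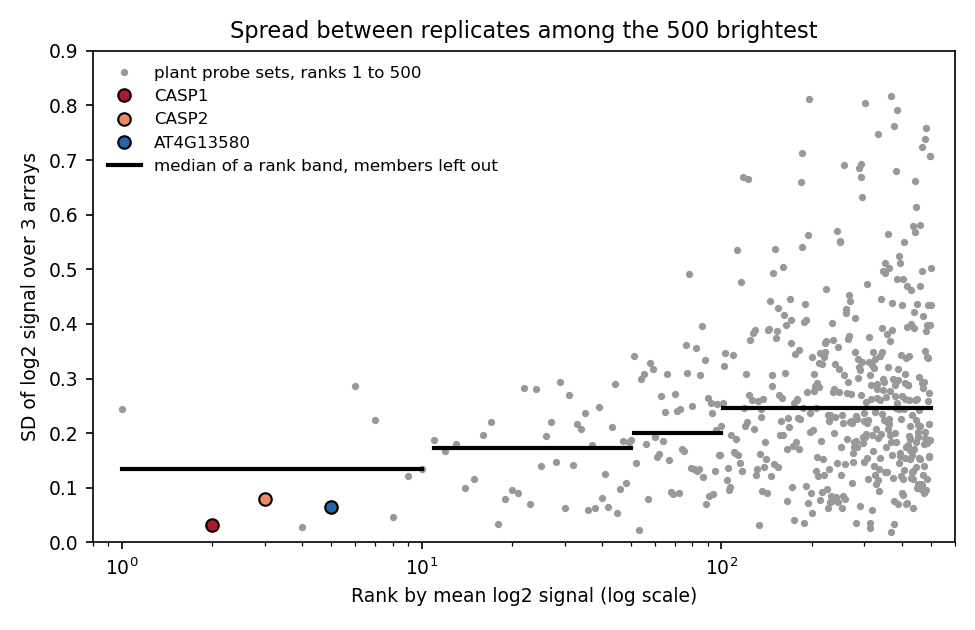
SD of the log2 signal over 3 arrays (y axis) against rank by mean log2 signal (x axis, log scale) for the 500 brightest plant probe sets. Black lines mark the median of each band of ranks, which falls from 0.25 to 0.13 towards the brightest, and CASP1, CASP2 and AT4G13580 lie at 0.031, 0.080 and 0.064.

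Within the small spread, the arrays deviated in slightly different ways. CASP1 deviated from its own mean by -0.0045, 0.033 and -0.029 (log2) in replicates 1, 2 and 3. The deviations of AT4G13580, -0.029, 0.073 and -0.045, had the same sign in each array, while CASP2, with -0.089, 0.065 and 0.023, was lowest in replicate 1. The median over the 100 brightest plant probe sets was 0.045, 0.073 and -0.094. All 3 genes were thus below that median in replicate 1, by 0.050 to 0.13, and above it in replicate 3, by 0.050 to 0.12.

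The profile of CASP1 over the arrays was closer to that of AT4G13580, with a root mean square difference of 0.029 (log2 deviations), than to that of CASP2, at 0.060. Among the 99 other probe sets of the 100 brightest, those most like CASP1 were 250165_at, at 0.027, and AT4G13580 itself. The nearest to CASP2 were 251324_at, at 0.0073, and 263437_at, at 0.028. For AT4G13580 they were 256328_at, the probe set of AT3G02360, at 0.0073, and 263867_at, at 0.012. These are likenesses over 3 arrays of 1 group and say little. CASP1 had an SD of only 0.031, so a small difference from it can reflect small spread without a shared pattern. Of the 99 probe sets, 12 lay within 0.05 of CASP1, 3 within 0.05 of CASP2 and 12 within 0.05 of AT4G13580.

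**Figure D4:**
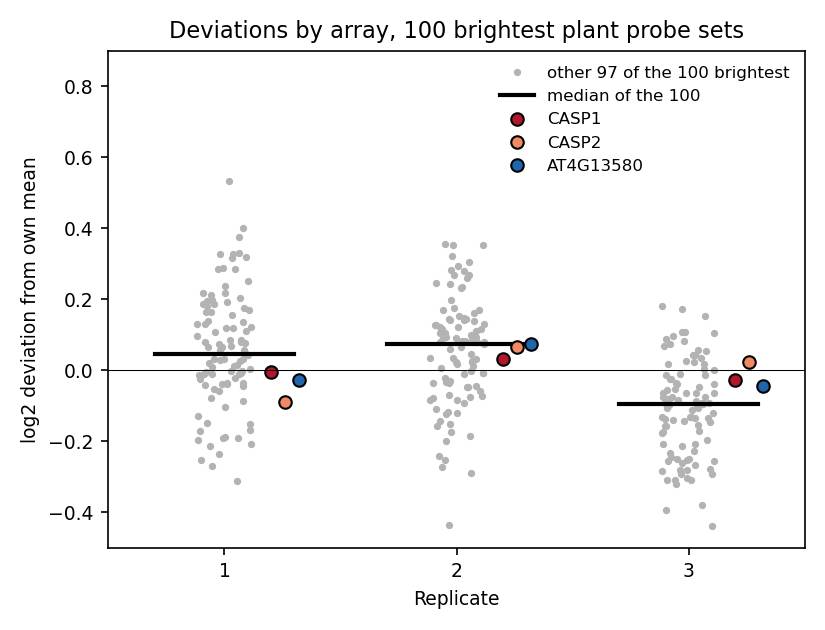
Deviation of the log2 signal from the probe set's own mean (y axis) in each replicate (x axis) for the 100 brightest plant probe sets, with black lines for the median of the 100. CASP1, CASP2 and AT4G13580 stay between -0.089 and 0.073, below the median in replicate 1 and above it in replicate 3.

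Other genes linked to the strip or the endodermis were described from lists of 64 loci. Of these, 10 could be matched to a probe set that the annotation pairs with 1 gene. AT4G13580 is one, and the other 9 were tested against the reference level with limma, fitted over all plant probe sets. All 9 of 9 lay above it (adjusted p = 0.0087 or lower, Benjamini-Hochberg). Over all plant probe sets 69.1% lay above it and 11.1% below, so a call above it is common. The 9 include CIF2, whose peptide comes from the vascular cylinder in the intact root, and no vascular marker was matched. The median log2 difference from the reference level was 8.89 for the 9 genes and 2.10 over all plant probe sets. The 9 could come only from the 13513 plant probe sets with 1 gene in the annotation. The values over all plant probe sets are not limited to those. The lists were picked with earlier results of these data known, so these medians are a description. CASP1, CASP2 and AT4G13580 also lay above the reference level, as their selection required. Probe sets of ESB1, PER64, MYB36, SCARECROW, SHORT-ROOT and the 13 suberin genes of the lists were not analysed here.

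Of the dirigent genes related to ESB1, AT2G39430 (DIR9, probe set 266978_at) was matched beside AT4G13580. Its signals were 6821, 10211 and 8730, with a mean of 8587 ± 1700 (SD, n = 3), and its log2 difference from the reference level was 9.33 ± 0.25 (SE). Replicate 1 was low, and the probe set ranked 90 there against 21 and 23 in replicates 2 and 3. Its SD of 0.29 (log2) exceeded that of AT4G13580.

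The strip's lignin is made by peroxidases that act together, of which 3 were matched. PER72 (AT5G66390) had signals of 10142, 10978 and 9575, at ranks 16, 16 and 15, and a log2 difference from the reference level of 9.60 ± 0.21 (SE). PER9 (AT1G44970) had signals of 7507, 9044 and 5905 and a log2 difference of 9.13 ± 0.23 (SE). PER39 (AT4G11290) was much dimmer, with signals of 301, 466 and 407, rank 3224 by mean log2 signal and a log2 difference of 4.87 ± 0.26 (SE). PER72 and PER9 were brightest in replicate 2 and dimmest in replicate 3, while PER39 was dimmest in replicate 1. HCT (AT5G48930), an acyltransferase on the route to the lignin building blocks, was the 1 matched gene of the 14 for monolignol synthesis. Its signals were 6084, 8011 and 5060, at rank 88 by mean log2 signal.

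Among the genes that survey the barrier, the receptor kinase GSO1 (AT4G20140, also called SGN3) had signals of 3421, 5068 and 5823. Replicate 3 was the highest, and the log2 difference from the reference level was 8.47 ± 0.28 (SE). The cytoplasmic kinase SGN1 (AT1G61590), which acts with that receptor, had signals of 5965, 9088 and 6609 and a log2 difference of 9.07 ± 0.25 (SE). The peptide CIF2 (AT4G34600), a ligand of the receptor, had signals of 1400, 768 and 750, with replicate 1 the highest. Its log2 difference was 6.14 ± 0.26 (SE). In the intact root the CIF2 peptide comes from the vascular cylinder.

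JACKDAW (JKD, AT5G03150), a zinc finger protein that acts with SHORT-ROOT and SCARECROW early in the ground tissue, was the 1 matched transcription factor of 7. Its signals were 27.2, 47.2 and 82.8, at rank 12310 by mean log2 signal. It lay above the reference level by 1.85 ± 0.40 (log2, SE; limma, adjusted p = 0.0087), and not above the highest Bacillus subtilis probe set taken as reference (1.04, adjusted p = 0.098). It was the dimmest of the 9 genes, and replicate 3 was its highest array.

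The label of the cells was set against markers of root cell types. Of the 8 endodermis markers other than CASP1, CASP2 and AT4G13580, GSO1 was the 1 matched, with the values above. Both cortex markers were matched. CO2 (AT1G62500) had signals of 12.2, 28.7 and 10.6, above the reference level in 1 of 3 arrays, and a log2 difference from it of 0.23 ± 0.36 (SE; limma, adjusted p = 0.58). PEP (AT1G09750) had 12.3, 4.05 and 4.02, above it in 0 of 3 arrays (log2 difference -1.17 ± 0.37, SE; limma, adjusted p = 0.035). Without replicate 2 or replicate 3 the adjusted p of PEP was 0.12 and 0.14.

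Of 6 markers of epidermis and root hairs, 2 were matched, both wall-loosening expansins of root hairs. EXPA7 had signals of 18.0, 71.5 and 192, and EXPA18 of 34.1, 54.9 and 147. Both were highest in replicate 3 and above the reference level in 3 of 3 arrays. The log2 differences from it were 2.25 ± 0.71 and 2.30 ± 0.48 (SE, limma, adjusted p = 0.033 and 0.0080). Over all plant probe sets 69.1% lay above that level, and the median log2 difference was 2.10, close to both. The log2 difference of EXPA7 was 3.21 without replicate 1, 2.15 without replicate 2 (limma, adjusted p = 0.068) and 1.40 without replicate 3 (limma, adjusted p = 0.11). That of EXPA18 was 2.82, 2.42 and 1.67 with the same arrays left out. Their summed signal was 52.1, 126 and 339 in replicates 1, 2 and 3. Its part in the deviations of CASP1, CASP2 and AT4G13580 was not tested. No marker of root cap, phloem, xylem, pericycle or of seed and flower was matched.

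**Figure D5:**
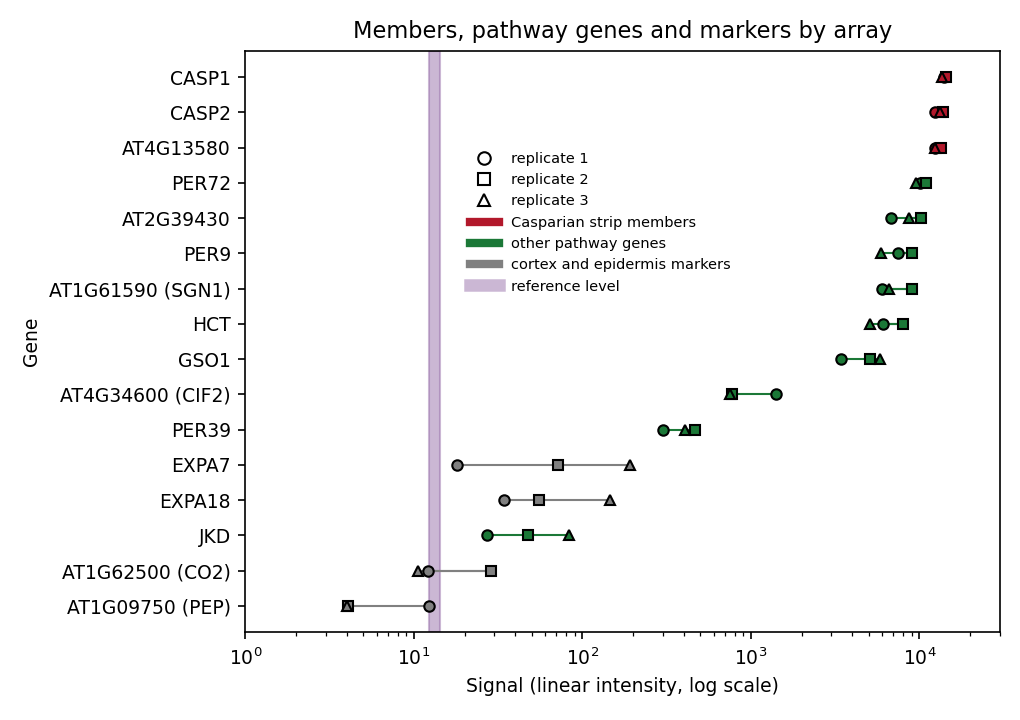
Linear signal (x axis, log scale) in each of the 3 replicates for CASP1, CASP2 and AT4G13580, 9 other pathway genes and 4 markers of cortex and epidermis (y axis), with the reference level as a vertical band. The 3 Casparian strip genes have nearly coinciding markers between 12307 and 14315, the pathway genes range from 27.2 to 10978, and the cortex markers lie around or below the band in most arrays.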

How the data were processed

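Signals of 22810 probe sets on 3 Affymetrix arrays were used as the authors deposited them, as linear intensities. MAS5 is named in the submitters' processing notes, with no version. How it scaled the arrays, and which probe sets it called present, is not stated in the labels. All values were above 0, and the means after trimming 2% of values at each end were 181, 187 and 187. Arrays have no read depth: their number limits the precision.

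Genes were named through the platform annotation and RefSeq's gene table (TAIR10.1). Of 22746 plant probe sets, 13513 had 1 gene, 503 several and 8730 were not listed. Locus names such as DIR9 and SGN1 follow common usage. No coordinates are given, since the deposited values name no build.

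Ranks, SDs and log2 deviations were computed with pandas 2.3.3. Log2 signal minus the reference level of each array was compared with 0 by limma 3.58.1 under R 4.3.3 (two-sided, Benjamini-Hochberg over all plant probe sets, threshold 0.05), after a trial on simulated data. Genes named are the 3 chosen, those of the lists, the 6 brightest probe sets and the 2 most alike among the 100 brightest. The next probe set after those 6 was added after its values were seen. The chosen genes and the lists were picked with earlier results of these data known. Alternatives were other scalings, a pseudocount of 16, other reference levels, a trend in eBayes, probe set filters and leaving out each array. Ranking by mean log2 signal was added after seeing the data.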

Additional observations from a re-analysis of the deposited data

How the results depend on the processing

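The mean log2 signal of CASP1, 13.77, was 13.83 after quantile normalization. All other alternatives left the levels of CASP1, CASP2 and AT4G13580 within 1 SD. The position of AT4G13580 by mean signal, 6, became 5 after quantile normalization and by mean log2 signal, and ran from 5 to 6 with 1 array left out. It was 5 without replicate 1 or without replicate 2. CASP1 held position 1 or 2 and CASP2 position 3 or 4 throughout. The SD of the log2 signal after quantile normalization was 0.091 for CASP1 and 0.13 for CASP2, against 0.031 and 0.080. That normalization was run over all 22810 probe sets, controls included. It sets each signal from its rank in its array alone, so these SDs follow changes of rank. The SD of the log2 signals as deposited changed less with the other scaling. With 1 array left out the SD of the deposited log2 signals ran from 0.017 to 0.044 for CASP1 (lowest without replicate 2). It ran from 0.030 to 0.11 for CASP2 (lowest without replicate 1) and from 0.011 to 0.084 for AT4G13580 (lowest without replicate 2). The count of 9 pathway genes above the reference level ran from 8 to 9, and it was 8, without JKD, with the highest Bacillus subtilis probe set as reference. That reference left 11654 plant probe sets above it, against 15715. The log2 difference of CO2 from the reference level, 0.23, became -0.57 with that reference and 0.91 at the 75th percentile, and ran from -0.22 without replicate 2 to 0.46 without replicate 1. It passed the test in none of these. PEP, below the reference level with an adjusted p of 0.035, missed the threshold at the 75th percentile (0.39), with the pseudocount (0.070) and with a trend (0.067). No paired analysis was possible because all 3 arrays belong to 1 group. Low signals limit the marker values: over ranks beyond 10000 the median SD of log2 signals was 0.55.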
